A study of Mus musculus with 11 samples.

Results

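The 10 genes described here are glucocorticoid-responsive genes and the receptor that carries the hormone signal: Nr3c1, Fkbp5, Tsc22d3, Sgk1, Cebpd, Zbtb16, Hif3a, Pdk4, Plin4 and Arrdc2. They were found by symbol among the 22377 genes of a table of cap analysis of gene expression (CAGE), which counts tags at the capped 5′ ends of RNAs, and no member had a duplicated symbol. The genes were selected on their known response to the hormone and on their levels in these libraries, the difference from naive cortex included, so that difference is given as a description without a test. The other contrasts use the same libraries, so counts of called members beside shares of all genes are descriptions too, not independent support.

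The libraries came from the cerebral cortex of male C57BL/6N mice of 8-10 and 65-85 weeks, with the age of each library not given. Stroke was induced by photothrombosis (PT), in which rose bengal (35 mg/kg) was given and the left parietal region was lit over a circle of 3.5 mm for 30 min. A naive, untreated cortex gave 1 library. The infarcted and the non-infarcted side gave 1 library each in 5 states: 7 d after PT, 7 d after PT with levetiracetam (LEV), 1 month (1 m) after PT, 1 m after PT with LEV, and 2 m after PT with LEV withdrawn for 2 weeks. LEV, a medicine against seizures whose binding site is SV2A on synaptic vesicles, was given in the drinking water at 5 mg/mL. All 10 post-stroke libraries came from mice with a PT lesion, 5 of them from the side away from it, no sham-operated library was analysed here, and mice of the series also received pentylenetetrazol to test for seizures, with no statement of which libraries this concerns. The number of mice behind a library is not stated, nor whether both sides of a state came from the same mice.

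Glucocorticoids (corticosterone in mice) cross the cell membrane and bind the glucocorticoid receptor, which is encoded by Nr3c1 and held ready by heat shock proteins and co-chaperones. The bound receptor enters the nucleus, attaches to glucocorticoid response elements and raises or lowers the transcription of nearby genes. In the brain, such target genes follow stress and the daily rhythm of the hormone, and several are read mostly from glia and blood vessels. The tissue here is bulk cortex, so fewer cells of a type and less RNA per cell cannot be told apart.

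The glucocorticoid response element is an inverted repeat of the 6-base unit AGAACA and TGTTCT around 3 free bases. Promoters of 7 members, with 14 start sites, were found in the RefSeq promoter table of build GRCm38.p6, which holds 250 bases before to 50 bases after each start. The full element (AGAACA, any 3 bases, TGTTCT; the same on both strands) occurred in 3 of 32851 promoters (0.00913%), and 1 of those was a start site of Sgk1, the serum and glucocorticoid regulated kinase. There its first base lay 189 bases before the start. A relaxed form (GNACA, any 3 bases, TGTNC) was found in 0.475% of promoters and in the same window of Sgk1 only among the members, where it overlaps the full element. The 6-base unit on either strand was found in 19.0% of promoters, and in 4 of the 14 member windows, 3 of Sgk1 and 1 of Tsc22d3. The Sgk1 window with the full element and the Tsc22d3 window with the unit are shown, with the promoters of Fkbp5, a customary readout of receptor activity, and of Plin4, the member farthest from its naive level. They lie at chr10:21993640-21993939 (plus strand) for Sgk1, chrX:140600473-140600772 (minus strand) for Tsc22d3, chr17:28486100-28486399 (minus strand) for Fkbp5 and chr17:56109733-56110032 (minus strand) for Plin4. Each is written 5′ to 3′ along the gene, and capitals mark the 6-base unit, with the 15-base element of Sgk1 in capitals throughout.
Sgk1: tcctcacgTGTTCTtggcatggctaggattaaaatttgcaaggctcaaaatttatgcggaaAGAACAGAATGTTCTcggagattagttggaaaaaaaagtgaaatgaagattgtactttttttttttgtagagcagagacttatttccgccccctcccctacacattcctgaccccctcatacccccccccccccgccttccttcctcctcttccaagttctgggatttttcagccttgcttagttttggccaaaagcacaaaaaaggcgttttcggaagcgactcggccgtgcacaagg
Tsc22d3: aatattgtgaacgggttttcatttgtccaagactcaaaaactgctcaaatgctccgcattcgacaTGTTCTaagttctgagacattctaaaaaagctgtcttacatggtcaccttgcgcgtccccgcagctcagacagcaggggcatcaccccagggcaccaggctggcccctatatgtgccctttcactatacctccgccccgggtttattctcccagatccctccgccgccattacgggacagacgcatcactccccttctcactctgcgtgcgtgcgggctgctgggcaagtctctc
Fkbp5: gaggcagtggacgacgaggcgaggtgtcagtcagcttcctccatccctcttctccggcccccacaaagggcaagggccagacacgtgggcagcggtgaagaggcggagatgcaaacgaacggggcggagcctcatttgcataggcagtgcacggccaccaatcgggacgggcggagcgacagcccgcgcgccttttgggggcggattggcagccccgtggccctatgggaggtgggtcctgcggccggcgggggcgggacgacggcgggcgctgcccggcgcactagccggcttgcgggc
Plin4: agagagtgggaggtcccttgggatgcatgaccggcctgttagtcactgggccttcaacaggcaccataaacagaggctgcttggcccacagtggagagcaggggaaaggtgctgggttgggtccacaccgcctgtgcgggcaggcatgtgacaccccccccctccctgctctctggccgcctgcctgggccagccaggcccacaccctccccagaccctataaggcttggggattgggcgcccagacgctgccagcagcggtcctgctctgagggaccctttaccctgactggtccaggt
A match is a description of letters, and windows without one say nothing of elements farther from the start. The deposited values are per gene, so the start site in use cannot be read from them.

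Library totals ranged from 12928291 to 21000367 tags, with 92.3% to 97.3% of them in the table. Values are CPM, tags scaled to a common library total, and 3 tags amounted to 0.143 to 0.232 CPM. The members were well above that, from 55 tags (Plin4, 2 m, non-infarcted side) to 2251 tags (Sgk1, 7 d with LEV, infarcted side). Neuron markers were present in every library, with 10 of 10 detected and a summed level of 7555 to 11583 CPM, and markers of the neighbouring striatum summed to 565.7 to 1060 CPM. The naive and the 1 m libraries stood apart from those of 7 d and 2 m in genes chosen for this after their values were seen. Atp5e was at 583.7 CPM in naive and at 690.0 to 924.5 CPM at 1 m, against 219.1 to 344.8 CPM at 7 d and 2 m. Stxbp3 was at 17.9 CPM in naive and at 18.3 to 22.3 CPM at 1 m, against 2.82 to 6.73 CPM at 7 d and 2 m. Differences between 7 d and 1 m fall along the same line, so comparisons inside each set of libraries are given beside them.

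Among the 10 genes, the largest departure from naive cortex was in Plin4, perilipin 4, a coat protein of lipid droplets (GRCm38 chromosome 17, 56100591 to 56109803, minus strand). It was at 16.5 CPM in the naive library. On the infarcted side it was at 3.80 CPM at 7 d, 3.82 at 7 d with LEV, 5.96 at 1 m, 6.87 at 1 m with LEV and 4.96 at 2 m. Every infarcted-side value was at least 2.40-fold below naive. On the non-infarcted side Plin4 was at 3.95, 4.31, 4.28, 5.43 and 3.34 CPM in the same order of states. The naive value was from 2.40 times (exact 95% interval 1.92 to 3.002) to 4.93 times (3.65 to 6.76) the post-stroke values, where intervals cover counting error only. Plin4 was the only member at least 1.5-fold below naive in all 10 post-stroke libraries, a pattern shown by 16 of 16221 genes with a mean of at least 1 CPM (0.0986%).

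Fkbp5 encodes an immunophilin that binds the receptor complex and lowers its affinity for hormone, and its own transcription is raised by the receptor (chromosome 17, 28399094 to 28517527, minus strand). It was at 41.4 CPM in the naive library. The infarcted side had 27.9 CPM at 7 d, 33.0 at 7 d with LEV, 19.96 at 1 m, 29.7 at 1 m with LEV and 22.2 at 2 m. The non-infarcted side had 23.3, 27.6, 20.8, 27.5 and 23.4 CPM in that order. All 10 values were below naive, and the naive value was 1.25 times the highest of them. The sides overlapped, and the LEV library was the higher of its pair each time.

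Hif3a, an inhibitory member of the hypoxia-inducible factor family (chromosome 7, 17031507 to 17062427, minus strand), was at 12.9 CPM in naive cortex. The infarcted side gave 6.27, 7.82, 6.18, 5.21 and 4.79 CPM from 7 d to 2 m in the order above, and the non-infarcted side 8.78, 8.67, 4.94, 5.38 and 5.22 CPM. The naive value was 1.47 times the highest post-stroke value. Arrdc2, an alpha-arrestin of protein trafficking (chromosome 8, 70835129 to 70839720, minus strand), was at 19.8 CPM in naive cortex. Its infarcted-side values were 9.28, 12.1, 9.55, 8.69 and 13.9 CPM, and its non-infarcted values 10.7, 11.5, 7.26, 9.90 and 6.62 CPM. Both genes were below naive in every post-stroke library.

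Zbtb16, also called PLZF, is a zinc finger repressor of transcription (chromosome 9, 48654297 to 48836222, minus strand). It was at 63.04 CPM in naive cortex. The infarcted side gave 39.2, 45.6, 31.2, 24.5 and 36.99 CPM, and the non-infarcted side 50.04, 57.3, 32.9, 29.5 and 39.3 CPM. All 10 were below naive, by as little as 1.10-fold in the 7 d LEV library of the non-infarcted side. In each state the infarcted value was the lower of the pair.

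Tsc22d3 encodes GILZ, the glucocorticoid-induced leucine zipper that holds back inflammatory transcription (chromosome X, 140539528 to 140600659, minus strand). Its naive level was 82.4 CPM. The infarcted side gave 72.6, 76.1, 46.96, 35.2 and 59.5 CPM, and the non-infarcted side 85.6, 81.6, 43.8, 41.1 and 58.8 CPM. The 7 d libraries lay around the naive level, and those of 1 m and 2 m below it. Sgk1, the kinase whose promoter holds the element above (chromosome 10, 21882184 to 21999903, plus strand), was at 100.01 CPM in naive cortex. The infarcted side gave 102.4, 130.4, 55.7, 62.3 and 63.9 CPM, and the non-infarcted side 93.3, 106.3, 47.9, 54.05 and 38.7 CPM. Again the 7 d values were near or above naive and all later ones below it.

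Cebpd encodes C/EBP-delta, a transcription factor of acute-phase and inflammatory responses (chromosome 16, 15887286 to 15891031, plus strand). The naive library had 19.8 CPM. The infarcted side was at 26.6, 29.2, 16.9, 16.6 and 14.5 CPM, around the naive level, and the non-infarcted side at 12.6, 11.7, 10.4, 10.9998 and 7.47 CPM, below it throughout. The sides did not overlap. Pdk4, the kinase that shuts off pyruvate dehydrogenase and so spares glucose (chromosome 6, 5483351 to 5496309, minus strand), was at 8.66 CPM in naive cortex. Its infarcted-side values were 9.16, 9.21, 7.61, 7.50 and 11.1 CPM and its non-infarcted values 10.7, 8.72, 5.66, 6.57 and 10.99 CPM. The 1 m libraries were the low ones on both sides.

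The receptor gene Nr3c1 lay the other way from most of its targets. It was at 65.4 CPM in naive cortex, its lowest library. The infarcted side gave 72.6, 69.1, 73.8, 65.6 and 79.9 CPM, and the non-infarcted side 79.6, 77.6, 77.4, 71.00 and 80.6 CPM. All 10 post-stroke values exceeded naive, the 1 m LEV library of the infarcted side by 65.6 against 65.4 CPM only.

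**Figure D1:**
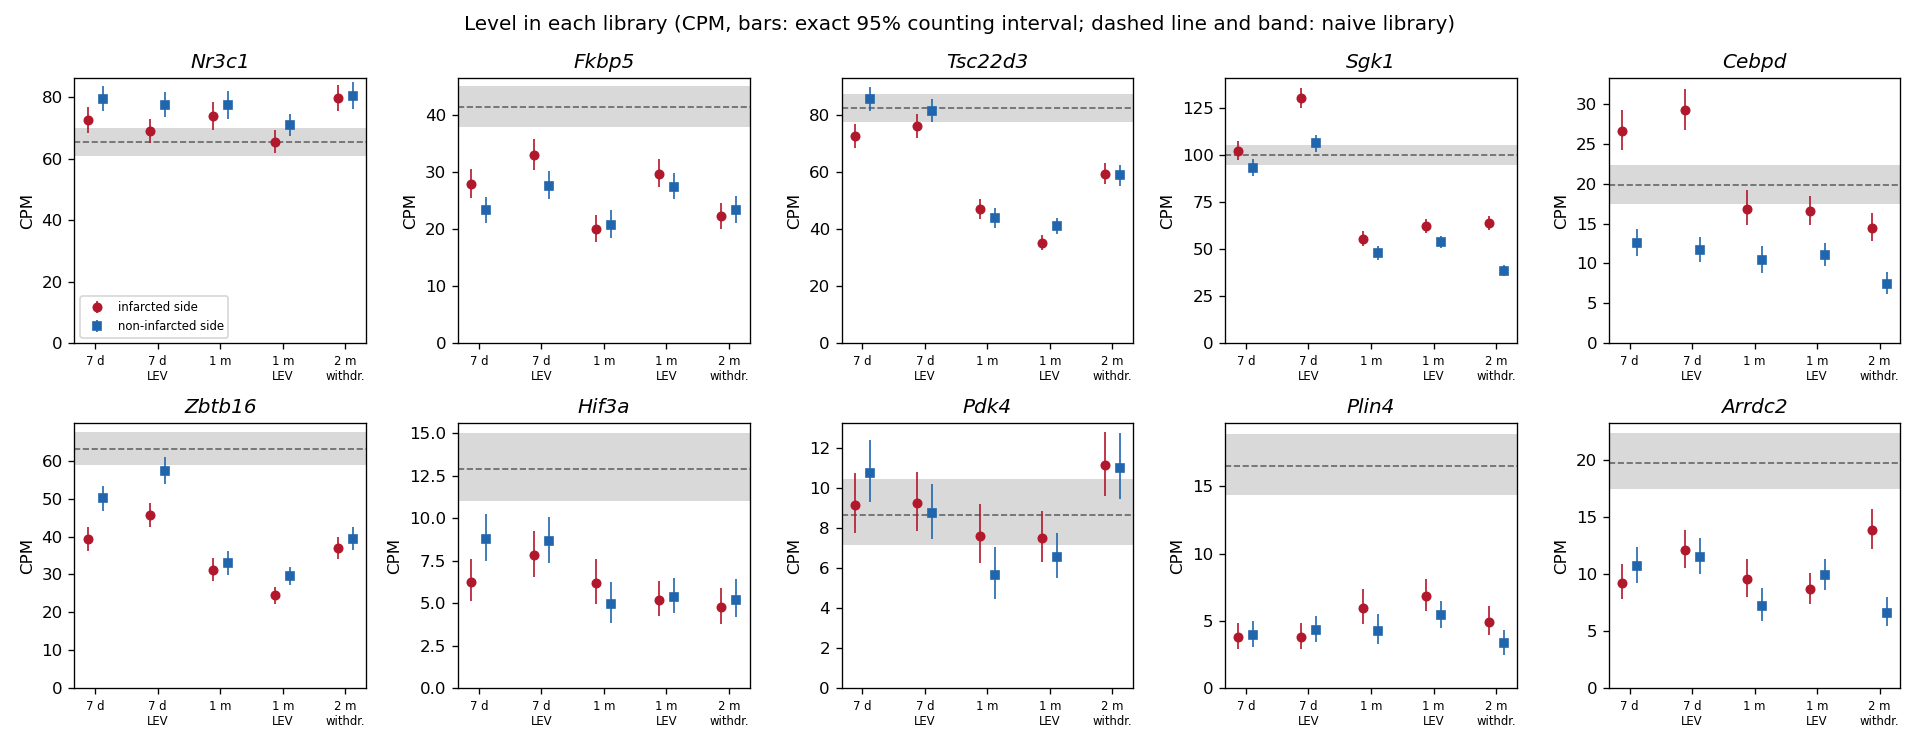
Level of each of the 10 genes in CPM (linear axes from 0) in the 5 post-stroke states, with circles for the infarcted and squares for the non-infarcted side, bars for exact 95% counting intervals, and the dashed line and grey band for the naive library and its interval. Plin4 stands at 3.34 to 6.87 CPM against 16.5 CPM in naive cortex, and Cebpd separates by side.

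Over the list, 5 of 10 genes were below naive in all 10 post-stroke libraries (Fkbp5, Zbtb16, Hif3a, Plin4 and Arrdc2), a pattern of 5.18% of all genes. Nr3c1 was above naive in all 10, as were 5.26% of genes. On the log2(CPM + 1) scale, the mean of the 5 infarcted-side libraries minus naive was -1.55 for Plin4, -0.996 for Hif3a, -0.85 for Arrdc2, -0.84 for Zbtb16 and -0.64 for Fkbp5. On the non-infarcted side the same differences were -1.74 for Plin4, -1.05 for Arrdc2, -0.91 for Hif3a, -0.74 for Fkbp5 and -0.62 for Zbtb16. The median over the 10 genes was -0.60 on the infarcted and -0.70 on the non-infarcted side, against 0.02 and 0.01 over all genes. These values describe 1 naive library and were among those that led to the list, and the 2 sides share that library.

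The shortfall was broader at 1 m than at 7 d. All 4 of the 1 m libraries were below naive for 9 of 10 genes, all but Nr3c1, where 21.5% of all genes had that pattern, and those 5 libraries belong to the same set by Atp5e and Stxbp3. Naive cortex exceeded the mean at 1 m by 2.92-fold for Plin4, 2.38-fold for Hif3a, 2.24-fold for Arrdc2, 2.14-fold for Zbtb16, 1.97-fold for Tsc22d3, 1.82-fold for Sgk1 and 1.69-fold for Fkbp5. All 4 of the 7 d libraries were below naive for 5 genes (24.5% of all genes). Both 2 m libraries were below naive for every member except Nr3c1 and Pdk4. That pattern asks for 2 libraries rather than 4, and its share of all genes was not counted.

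**Figure D2:**
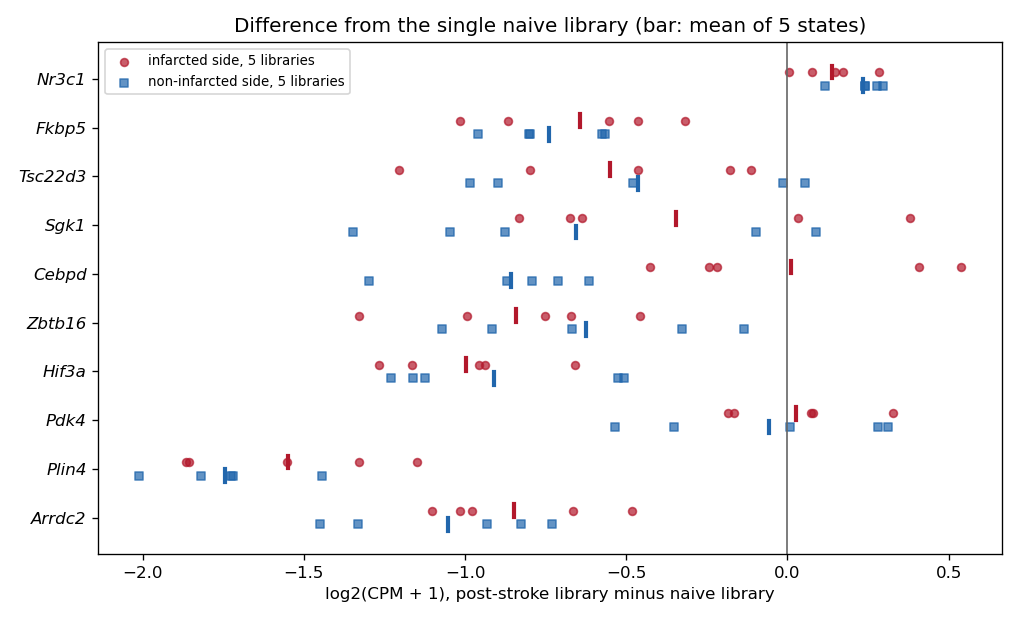
Difference of each post-stroke library from the naive library on the log2(CPM + 1) scale for each gene (circles, infarcted side; squares, non-infarcted side; bars, mean of 5 states). Plin4 lies farthest to the left, with means of -1.55 and -1.74, and Nr3c1 alone lies to the right on both sides.

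The naive library also held more RNA of choroid plexus, and its part in the naive values was not tested. The 8 choroid plexus markers were all in the table and summed to 475.3 CPM in naive, 107.9 to 166.9 CPM on the infarcted and 108.8 to 303.0 CPM on the non-infarcted side, with Kcne2 at 0 in some libraries. Ttr made up most of it, at 349.7 CPM in naive, 195.3 CPM in the 1 m LEV library of the non-infarcted side and 9.79 to 24.7 CPM elsewhere. In that second library, with less Ttr than naive, Plin4 was at 5.43 CPM, Hif3a at 5.38 and Fkbp5 at 27.5, all below naive. It is 1 library, and the relation of these levels to Ttr was not tested. Of 8 markers of muscle and fat, which also express Plin4 and Pdk4, 5 were in the table, with Plin1 at 0 in every library. They summed to 3.48 CPM in naive and to 0.114 to 0.862 CPM on the infarcted side. On the non-infarcted side the sums ran from 0.0476 to 9.01 CPM with a median of 0.106 CPM. The highest was the 7 d library of that side, where Plin4 was at 3.95 CPM. The part of these tissues in the naive values was not tested.

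Time after stroke was the contrast with the most called members. The comparison of 1 m with 7 d was fitted on each side over the libraries with and without LEV, by limma on log2(CPM + 1) with Benjamini-Hochberg adjustment over all genes and a threshold of 0.05. With 4 libraries there is 1 residual degree of freedom, and the spread is borrowed from all genes. On the infarcted side 4 of 10 members fell (11.4% of all genes did) and 1 rose (5.27%). The members were chosen with levels in these libraries known, so the shares of all genes are given for scale. Sgk1 fell by 0.96 (SE 0.14, adjusted p 5.89e-07), Tsc22d3 by 0.85 (SE 0.15, adjusted p 1.74e-05), Cebpd by 0.70 (SE 0.17, adjusted p 0.00165) and Zbtb16 by 0.60 (SE 0.16, adjusted p 0.00519) on the log2 scale. Plin4 rose by 0.62 (SE 0.21, adjusted p 0.0346), from 3.80 and 3.82 CPM to 5.96 and 6.87 CPM. That call was lost without a lower limit on mean CPM (adjusted p 0.0835), without the LEV term (0.0649) and with edgeR on the tags (0.0523), in a range of 0.0203 to 0.0835 over its alternatives. Fkbp5 (-0.31, adjusted p 0.207), Hif3a (-0.26), Pdk4 (-0.25), Arrdc2 (-0.20) and Nr3c1 (-0.02) did not pass. The median was -0.28 over the members and -0.04 over all genes.

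On the non-infarcted side, away from the lesion, 5 of 10 members fell (6.45% of all genes did) and none rose (5.98%). Tsc22d3 fell by 0.96 (SE 0.14, adjusted p 0.00061), Sgk1 by 0.96 (SE 0.14, adjusted p 0.000628), Zbtb16 by 0.76 (SE 0.15, adjusted p 0.00445), Hif3a by 0.66 (SE 0.18, adjusted p 0.0245) and Pdk4 by 0.59 (SE 0.18, adjusted p 0.0456) on the log2 scale. The call of Hif3a was lost without a limit on mean CPM (0.062) and under TMM scaling (0.0571), in a range from 0.0232. The call of Pdk4 was lost under those settings (0.0987 and 0.0979) and with centring on the median gene (0.0579), in a range from 0.0431. Tsc22d3, Sgk1 and Zbtb16 passed on both sides under each of the 7 alternatives fitted per side. For Sgk1 on the infarcted side the adjusted p ran from 4.65e-10 to 0.0026 over them, both by limma. Arrdc2 (-0.35, adjusted p 0.188), Cebpd (-0.17, adjusted p 0.549), Plin4 (0.19), Fkbp5 (-0.08) and Nr3c1 (-0.08) did not pass. The member median was -0.47, and -0.06 over all genes. Several genes passed on 1 side only, and a test of the difference between the sides, added after the data were seen, passed for none of them: adjusted p was 0.115 for Cebpd, 0.437 for Plin4, 0.465 for Hif3a and 0.537 for Pdk4.

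**Figure D3:**
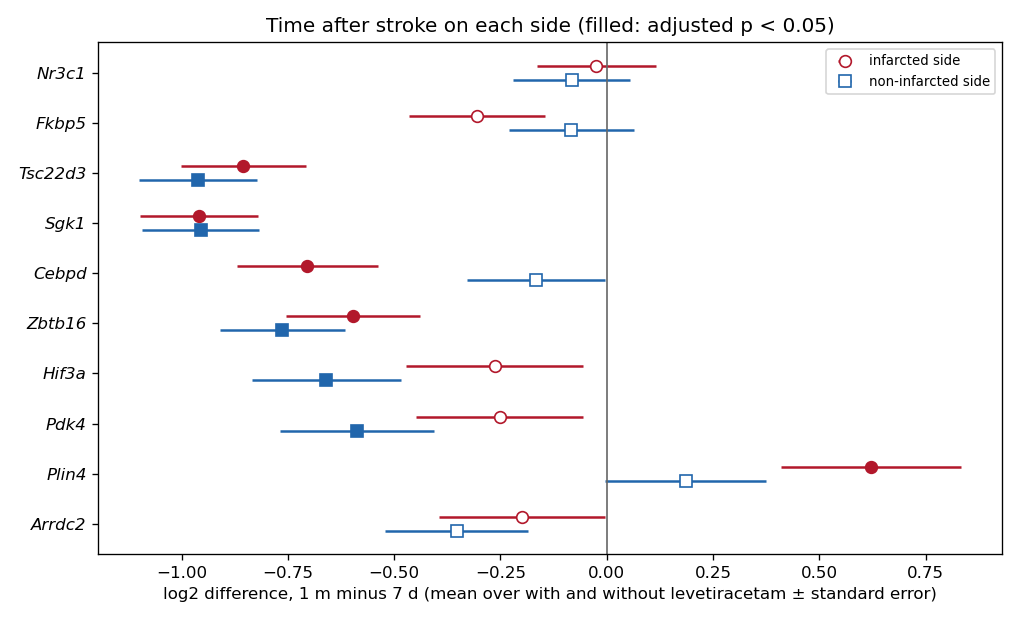
Log2 difference of 1 m minus 7 d for each gene with its standard error, circles for the infarcted and squares for the non-infarcted side, filled where the adjusted p was under 0.05. Sgk1 and Tsc22d3 lie between -0.85 and -0.96 on both sides, and Plin4 is the filled point to the right.

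The 7 d values of Tsc22d3, Sgk1, Zbtb16, Hif3a and Pdk4 exceeded all 1 m values whatever the side or drug, 5 of 10 genes against 13.4% of all genes. No member had the reverse pattern (8.61%). The mean level at 7 d was 1.97 times that at 1 m for Sgk1, 1.89 times for Tsc22d3, 1.63 times for Zbtb16, 1.45 times for Hif3a and 1.38 times for Pdk4. The 7 d and 1 m libraries also differ in Atp5e and Stxbp3. By these 2 genes the 2 m libraries side with those of 7 d, so 2 m and 7 d were compared as well. No label gives such sets. The 2 m libraries also had LEV withdrawn, so time and drug history change together in this comparison. Tsc22d3, Sgk1 and Hif3a were lower in both 2 m libraries than in all 4 of 7 d, 3 of 10 genes against 10.2% of all genes. Zbtb16 at 2 m (36.99 and 39.3 CPM) overlapped its 7 d range at the low end (39.2 to 57.3 CPM). Pdk4 and Nr3c1 were higher at 2 m than in all 4 of 7 d (20.5% of genes were).

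Cell type markers moved with time on the infarcted side, and their part in the members' change was not tested. Of 10 microglia and macrophage markers, 9 fell, their sum going from 2200 to 2551 CPM at 7 d to 637.4 to 1052 CPM at 1 m. Of 8 meningeal and fibroblast markers, 6 fell, and of 10 astrocyte markers, 4 fell. Over all genes on this side, 11.4% fell and 5.27% rose. Striatum markers rose in 8 of 9 cases, with a median of 0.50 and sums of 565.7 to 839.5 CPM at 7 d and 885.4 to 1021 CPM at 1 m, and 3 of 10 neuron markers rose. On the non-infarcted side, where Sgk1, Tsc22d3 and Zbtb16 fell as well, microglia and macrophage markers summed to 303.9 to 335.3 CPM at 7 d and 261.2 to 335.4 CPM at 1 m, with 1 of 10 called. Astrocyte markers there fell for 3 of 10 (9 of 10 negative, median -0.22), with sums of 2537 to 2738 CPM at 7 d and 2146 to 2425 CPM at 1 m. Of 10 endothelial markers there 1 rose and 1 fell (6 of 10 negative, median -0.24). On the infarcted side 1 endothelial marker rose and 2 fell (6 of 10 negative, median -0.28). Over all genes on the non-infarcted side, 6.45% fell and 5.98% rose. The median of all genes was -0.06 on that side and -0.04 on the infarcted side. Oligodendrocyte markers, of cells in which Sgk1 is read strongly, had 0 of 10 called on either side in limma or edgeR, with 1 and 2 at an unadjusted p under 0.05. They were negative for 7 of 10 on the infarcted side (median -0.15) and for 8 of 10 on the non-infarcted side (median -0.18). On the infarcted side they summed to 3585 to 3877 CPM at 7 d and to 3343 to 3445 CPM at 1 m, without overlap. On the non-infarcted side they summed to 2496 to 3385 CPM at 7 d and 2514 to 2674 CPM at 1 m.

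Between the sides, Cebpd was the member that differed. Over 5 states, with state as a term, it was higher on the infarcted side by 0.87 (SE 0.11, limma adjusted p 0.00675), in 5 of 5 states. The ratio of the sides was 2.12 (95% counting interval 1.80 to 2.49) at 7 d, 2.497 (2.13 to 2.94) at 7 d with LEV, 1.62 (1.31 to 2.01) at 1 m, 1.51 (1.27 to 1.79) at 1 m with LEV and 1.94 (1.56 to 2.42) at 2 m. With 1 of 10 called against 7.00% of 16229 genes, the list as a whole stood near the background. Cebpd was called under all 12 alternatives, with adjusted p from 0.00284 to 0.0494. Its side difference was 1.14 at 7 d and 0.60 at 1 m. The added limma test of that change gave -0.54 (SE 0.20, adjusted p 0.115, unadjusted 0.00883). It called no member, against 5.47% of genes, and 1 member, Cebpd, had an unadjusted p under 0.05; no other tool was run on it.

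None of the other 9 members passed by side. Sgk1 was higher on the infarcted side in 5 of 5 states, with a mean of 0.31 (SE 0.09, limma adjusted p 0.0641) and its largest ratio at 2 m (1.65, 1.497 to 1.82). Zbtb16 was lower there in 5 of 5 states, by a mean difference of -0.22 (SE 0.07, adjusted p 0.0926), which passed with centring on the median gene (-0.28, adjusted p 0.0374) and TMM scaling (-0.25, adjusted p 0.0439), in a range of 0.0374 to 0.840 over the alternatives. Nr3c1 was also on the low side in 5 of 5 states (-0.10, adjusted p 0.328). The share of all genes with 1 direction in 5 of 5 states was not counted. The 5 of 5 counts, that of Cebpd included, are therefore descriptions without a scale. Arrdc2 (0.21, adjusted p 0.498) had a ratio of 2.10 (1.67 to 2.66) at 2 m, while in the other states its ratio lay between 0.865 and 1.32. Plin4 (0.19), Fkbp5 (0.10), Pdk4 (0.08), Tsc22d3 (-0.09) and Hif3a (-0.09) did not pass. The median was 0.09 over the members and 0.01 over all genes.

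**Figure D4:**
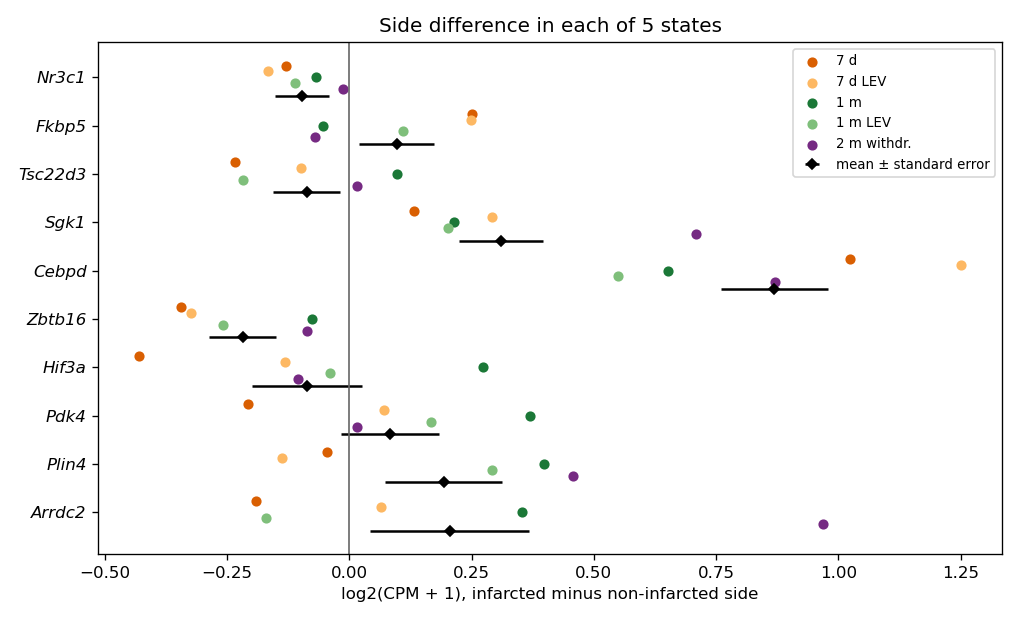
Infarcted minus non-infarcted side on the log2(CPM + 1) scale for each gene in each of 5 states (coloured points), with the mean and its standard error (black diamonds). Cebpd lies to the right in every state with a mean of 0.87, and Arrdc2 has 1 state, 2 m, apart from the rest.

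Microglia and macrophage markers, of cells that express Cebpd during inflammation, were higher on the infarcted side in the same test for 9 of 10 genes, at a sum of 637.4 to 2551 CPM against 261.2 to 339.3 CPM. Astrocyte markers were higher for 3 of 10, at 2516 to 3444 CPM against 2146 to 2738 CPM, oligodendrocyte markers for 7 of 10 and meningeal and fibroblast markers for 5 of 8. Over all genes, 6.21% were higher on the infarcted side. The part of these cell types in the side difference of Cebpd was not tested.

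No member passed the test for LEV on either side, in limma or in edgeR, and 1 (Fkbp5, infarcted side) had an unadjusted p under 0.05. LEV was compared with no drug over 7 d and 1 m with limma, which called 0.518% of 16399 genes on the infarcted side and 0.00628% of 15931 genes on the other. Over all genes, 1370 and 798 had an unadjusted p under 0.05, and edgeR called 17 and 9. Fkbp5 had the largest value among the members, 0.39 (SE 0.16, adjusted p 0.426, unadjusted 0.0181) on the infarcted and 0.31 (SE 0.15, adjusted p 0.985, unadjusted 0.0505) on the non-infarcted side. Its LEV library was the higher in 4 of 4 pairs, by 1.18-fold and 1.19-fold at 7 d and by 1.49-fold and 1.32-fold at 1 m. Sgk1 and Plin4 were also higher with LEV in 4 of 4 pairs, which 13.7% of all genes were, and Nr3c1 was lower in 4 of 4, which 10.1% were.

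From the 1 m LEV to the 2 m withdrawn library, time and withdrawal change together and each side has 1 library per group, so ratios carry counting intervals only. Each ratio also crosses the line between the library sets, with Atp5e at 881.7 and 924.5 CPM in the 1 m LEV libraries and at 219.1 and 288.0 CPM in those of 2 m, and the part of that in the ratios was not tested. Pdk4 was at 1.48 times (1.19 to 1.85) its 1 m LEV level on the infarcted and 1.67 times (1.33 to 2.10) on the non-infarcted side. Tsc22d3 was at 1.69 and 1.43 times and Zbtb16 at 1.51 and 1.33 times. Plin4 was lower at 2 m on both sides, at 0.722 (0.544 to 0.953) and 0.615 (0.437 to 0.856) of its 1 m LEV level. Arrdc2 was at 1.60 times (1.31 to 1.96) that level on the infarcted and 0.668 times (0.525 to 0.846) on the non-infarcted side. Ratios of 1.5 or more were found on the infarcted side for 3 members (Tsc22d3, Zbtb16 and Arrdc2) against 15.0% of genes, and on the non-infarcted side for Pdk4 only, against 12.9%. Ratios at least 1.5-fold down were found for 0 members on the infarcted side (6.48% of genes), and on the other for Plin4 only, as 0.668 and 0.679 for Arrdc2 and Cebpd stay short of it (10.9%).

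A wider list of 25 other glucocorticoid targets, drawn up with results of these data known, was tested in full. By side, 5 were higher and 1 lower on the infarcted side in the limma test, against 6.21% and 0.789% of all genes. Txnip, an inhibitor of thioredoxin, was higher on the infarcted side by 0.93 (SE 0.12, adjusted p 0.00675), and the metal-binding metallothioneins Mt2 by 0.90 (SE 0.17, adjusted p 0.0186) and Mt1 by 0.43 (SE 0.08, adjusted p 0.0199). Lcn2, lipocalin 2 of reactive glia and neutrophils, was higher by 1.91 (SE 0.40, adjusted p 0.0262). The fifth gene was Mertk, a receptor for engulfing dying cells (0.54, adjusted p 0.0265), and the lower one was Dusp1, a phosphatase that turns off MAP kinases (-0.34, adjusted p 0.0495). From 7 d to 1 m, 6 of 25 fell and 1 rose on the infarcted side, against 11.4% and 5.27% of all genes. On the other side 4 of 25 fell (Txnip, Lcn2, Per1 and Fam107a) and none rose, against 6.45% and 5.98%. Lcn2 was the gene that rose on the infarcted side (1.13, adjusted p 1.89e-05), and it fell by 1.28 on the log2 scale (adjusted p 0.00464) on the non-infarcted side. Relative to naive, 20 of 25 were lower on the non-infarcted side with a median of -0.26, and 15 of 25 on the infarcted side with a median of -0.13, where the medians of all genes were 0.01 and 0.02. With LEV, 1 of 25 passed on the infarcted side in limma (0.128% of genes rose) and none in edgeR: Mt2 rose by 0.83 (adjusted p 0.00923). At 1 m it had 271.7 CPM without and 761.6 CPM with LEV, against 429.0 and 484.7 CPM at 7 d.

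Genes around the receptor were tested in 2 lists. Of 14 chaperones and cofactors of the receptor, such as Hsp90aa1 and Fkbp4, none was called by side in limma, where 7.00% of genes were, or in edgeR, and 2 had an unadjusted p under 0.05. Over time 1 of 14 (7.14%) fell on the infarcted side, where 11.4% of all genes did. It was Hspa8 of the Hsc70 chaperone (-0.50, adjusted p 0.0269). On the non-infarcted side 2 of 14 (14.3%) fell, where 6.45% of all genes did. They were Hspa8 (-0.66, adjusted p 0.0246) and the co-chaperone Stip1 (-0.45, adjusted p 0.0492). The other list has 9 genes of hormone supply and alternative receptors, the member Nr3c1 among them. Of these, 8 were in the table, and 2 of the 8 (25%) passed by side, against 7.00% of all genes. Crhr1, a receptor of corticotropin-releasing hormone, was lower on the infarcted side (-0.42, SE 0.07, adjusted p 0.0164), and Abcb1a, a drug pump of the blood-brain barrier that also exports steroids, was higher (0.66, SE 0.17, adjusted p 0.0458). Abcb1a was also the gene of this list that fell over time on the infarcted side (-0.68, adjusted p 0.0295). Nr3c2, the mineralocorticoid receptor that binds the same hormone, was at 37.4 CPM in naive and 32.2 to 45.8 CPM after stroke, and did not pass in any of the 5 tests.

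The members did not share one pattern. Over the 11 libraries, Pearson's r of a gene to the mean of the other 9 was 0.84 for Hif3a, 0.83 for Zbtb16 and Tsc22d3, 0.78 for Sgk1 and Arrdc2, 0.56 for Fkbp5, 0.39 for Cebpd, 0.38 for Pdk4, 0.25 for Plin4 and -0.38 for Nr3c1. These describe 11 libraries that share the time and lesion structure, and carry no test. Outside the list, the genes most like the mean profile among 12788 with a mean of at least 5 CPM were D430042O09Rik (r 0.86), Zfp189 (0.84), Arhgef37 (0.84), Cpm (0.84), Paqr5 (0.83) and Dhx37 (0.83). Most like Fkbp5 was Ddit4 (0.91), an inhibitor of mTOR signalling on the wider target list, which was at 18.1 CPM in naive and 10.7 to 15.9 CPM after stroke. Next came Mir5103 and Gm37233 (0.85), which had identical values in every library.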

How the data were processed

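CAGE tags were measured in 11 libraries of mouse cerebral cortex from total RNA, with cap-trapped cDNA per the labels' protocols. BWA 0.7.17, HISAT2 2.0.5, DESeq2 1.20.0 and build GRCm38 are named in the submitters' processing notes, with no roles given. The deposited values are the authors' CPM per gene, and 0 columns lacked a sample. Low values moved in steps of a single tag, from which library totals were recovered. Of all values, 100.0% were then whole tags within 0.01, and edgeR on these tags called 1281 genes by side and 2380 and 2038 over time on the infarcted and non-infarcted side. The exact 95% intervals cover counting error only.

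Each group has 1 library (12928291 to 21000367 tags), so the side test used 5 states and the time and levetiracetam tests 4 libraries per side. limma 3.58.1 (R 4.3.3) with a mean-variance trend was fitted on log2(CPM + 1) over genes with mean CPM of at least 1, with Benjamini-Hochberg adjustment over all of them and a threshold of 0.05. The pseudocount understates changes of low genes. The p-values measure the spread between these libraries, since separate animals are not stated. In the time and levetiracetam tests, with 1 residual degree of freedom, that spread comes mostly from all genes rather than from the gene itself. The borrowed part counted as 45.3 degrees of freedom on the infarcted and 13.9 on the non-infarcted side. Alternatives were a pseudocount of 0.25, no limit or a limit of 5 on mean CPM, median centring, TMM, edgeR 4.0.16 on recovered tags, no second factor and leaving out each state. The test of a side difference that changes with time was added after the data were seen. The fits were also run on simulated counts, with the same extra spread for every gene and no difference between library sets. Such counts cannot show how the p-values behave in libraries that differ as these do.

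The 10 members and all other lists were chosen with earlier results of these data known. All members are named; of other lists, those with the smallest p by side and counts; and the 6 and 3 genes most like the member mean and Fkbp5. Other genes named were chosen after their values were seen. Positions come from GENCODE release 21 of mouse (M21), in which 22335 of 22377 gene IDs matched, promoters from RefSeq (GRCm38.p6). The design text starts levetiracetam 1 month after stroke and gives 1 week of withdrawal, whereas the labels have it at 7 d and withdrawal for 2 weeks; the labels were followed.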

Additional observations from a re-analysis of the deposited data

Results flagged for a closer look

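Zbtb16 was higher with levetiracetam at 7 d in both pairs, by a mean of 0.202 on the log2(CPM + 1) scale, and lower at 1 m in both pairs, by a mean of -0.2452, and the difference between the times was not tested. Pdk4 lay above naive in all 4 libraries of 7 d (mean 0.1101) and below it in all 4 of 1 m (mean -0.3099). The 95% counting interval of naive over each 7 d library included 1, as did those for the infarcted side at 1 m. For the non-infarcted side naive was 1.53 times (1.14 to 2.07) the 1 m and 1.32 times (1.02 to 1.70) the 1 m levetiracetam library. The 7 d and 1 m values of Pdk4 were compared directly on each side, with the result given in the report. Plin4 was lower on the infarcted side at 7 d in both pairs (mean -0.0909) and higher at 1 m in both pairs (mean 0.3448), with a tested change of 0.44 (SE 0.26, limma adjusted p 0.437).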

How the results depend on the processing

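No paired analysis was possible because the labels carry no replicate numbers and each group has 1 library; this concerns pairing by replicate number, while the side test matches the sides by state. The number of genes called by side, 1136, was 732 with a mean CPM of at least 5, 245 without the state term, and 71 to 1288 when 1 state was left out. It was 103 without 7 d, 161 without 7 d with levetiracetam and 71 without 1 m. Over time, the infarcted side had 1547 calls without the levetiracetam term (2732 with it), and the non-infarcted side 1300 under TMM (1979). For levetiracetam on the infarcted side, 85 calls became 28 with a pseudocount of 0.25, 11 with no limit on CPM, 209 with a limit of 5, 12 with median centring, 0 under TMM (1306 at an unadjusted p under 0.05), 17 in edgeR and 0 without the time term (88 unadjusted). On the other side, 1 call became 3, 0, 0, 2, 0, 9 and 0 in the same order, with 1105, 605, 738 and 91 genes at an unadjusted p under 0.05 where the count was 0. The share of calls that were higher moved with the scaling: by side 88.7%, and 69.1% with median centring and 74.8% with TMM; over time on the infarcted side 31.6%, 46.5% and 38.4%; on the non-infarcted side 48.1%, 61.1% and 71.5%. Of the members, Nr3c1 over time on the infarcted side, at -0.02, turned to 0.0506 with median centring and 0.0236 with TMM. In all, 385 of the members' values under alternatives kept direction and side of the threshold, 8 lost and 2 gained a call, and 2 reversed. Plin4 gave no value with a limit of 5 in the side test or on the non-infarcted side. The causes were not tested.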

Other observations

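Gene groups next to glucocorticoid signalling were tested with limma as in the report. Of 15 circadian clock genes, 4 fell and 1 rose from 7 d to 1 m on the non-infarcted side (6.45% and 5.98% of all genes did), and 2 fell and 1 rose on the infarcted side, near the shares of all genes (11.4% and 5.27%), where edgeR called 1. Per2 and Bhlhe41 fell on both sides, and Per1 and Ciart on the non-infarcted side. Per1, which is both a clock gene and a glucocorticoid target, fell by 0.61 on the log2 scale (adjusted p 0.0151) on the non-infarcted side, from 101.4 and 112.8 CPM to 75.9 and 63.8 CPM, with 87.8 CPM in naive cortex. Hlf rose over time on both sides (0.45, adjusted p 0.0233, and 0.50, adjusted p 0.0378) and stood at 246.6 and 259.1 CPM in the 1 m levetiracetam libraries against 114.5 to 177.5 CPM in the other post-stroke libraries. The time of day of sampling is not given in the sources used here. Of 12 immediate early genes, which neuronal firing induces, 7 fell on the non-infarcted side and 3 (Junb, Egr4 and Arc) on the infarcted side over the same interval. By the mean of 5 libraries minus naive, 11 of 12 immediate early genes lay above naive on the non-infarcted side. Their median was 0.47, against 0.01 over all genes. On the infarcted side 10 of 12 lay above naive, with a median of 0.14 against 0.02 over all genes. These values rest on 1 naive library and carry no test. The glucocorticoid-responsive genes were chosen with their difference from naive known, so no contrast with them is drawn.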
